A study of Mus musculus with 9 samples.

Results

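The data concern 10 genes that encode non-collagen components of cartilage matrix, followed across mouse cells sorted from the tissue that forms around a tibial implant: Acan, Hapln1, Matn1, Matn3, Cnmd, Snorc, Ucma, Comp, Chad and Prg4. They were taken as a list of symbols, and all 10 were found among the 27179 genes of the deposited table. The cKO group comprised 5 libraries from Lepr-CreERT;Tdtomato;Grem1fl/fl mice and the Control group 4 libraries from Lepr-CreERT;Tdtomato mice. The Control labels list the Cre driver and the reporter but no floxed Grem1 allele. Both groups had received tamoxifen to activate Cre in cells that express Lepr, the leptin receptor gene, and tissue was taken 2 weeks after surgery. Lineage-negative, tdTomato-positive cells were sorted and their polyadenylated RNA was sequenced. The labels used here give no age or sex and do not say whether each library came from 1 animal, and every p-value below is set against library-to-library spread, which may be partly technical. The labels do not say which part of Grem1 is removed. The study asked how the transcriptome of these cells differs when they lack Grem1, which encodes gremlin 1, a secreted antagonist of bone morphogenetic proteins.

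Cartilage matrix is a collagen network filled with aggrecan, the product of Acan, a proteoglycan whose chondroitin sulfate chains hold water and let the tissue bear load. Aggrecan binds hyaluronan, and link protein, the product of Hapln1, locks that bond. Smaller proteins connect the network (matrilins, COMP), contact cells (chondroadherin), keep vessels out (chondromodulin) or lubricate the joint surface (lubricin).

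Libraries of cKO held 43.5 to 87.2 M recovered reads and those of Control 44.8 to 53.4 M. Of the cKO libraries, replicates 1 to 4 held 76.3 M or more, and replicate 5 held 43.5 M. Depth thus separates cKO replicates 1 to 4 from all other libraries, and in that respect genotype and depth can be compared on a like basis only through cKO replicate 5. Grem1 averaged 89.6 ± 38.2 normalized counts in cKO and 572 ± 171 in Control (SD, n = 5 and 4; limma adjusted p = 0.00781), and every cKO library lay below every Control library. The Grem1 call was lost with cKO replicate 5 alone against Control (log2 fold change -3.16, limma adjusted p = 0.153), with depth class as a covariate (-3.16, 0.143) and without Control replicates 1 and 3 together (-2.36, 0.0934), against -2.72 over all libraries. Over all genes, cKO replicate 5 stood apart from the other cKO libraries, with a first principal component score of 26.8, against -126 to -74.1 in cKO replicates 1 to 4 and 90.4 to 104 in Control. Markers of the sorted cell type were present: the 8 LEPR stromal markers summed to between 79488 and 178639.8 normalized counts in cKO and between 91154 and 347372 in Control, with none at 0. These sums hide how single markers varied. Lepr had 15785, 13110, 9822, 13845 and 1347 in cKO replicates 1 to 5, against 18730, 5380, 40594 and 935 in Control. Between groups without overlap, Pdgfra was higher in cKO, as were 6.82% of all genes tested, and Pdgfrb lower, as were 4.6%. Over all 15832 genes tested, 454 were lower and 730 higher in cKO.

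Start regions were on hand for 7 of the 10 genes, as RefSeq windows of assembly GRCm38.p6 that run from 250 bases before the gene's start to 50 after it. Windows of 3 genes are shown: Acan and Ucma, whose profiles over the 9 libraries were the most alike of any pair of the 10 genes, and Chad, whose level did not pass the test. The windows lie at chr7:79052976-79053275 (plus strand), chr2:4975872-4976171 (plus strand) and chr11:94564797-94565096 (plus strand) in that assembly, and capitals mark the letters TATAAA.
Acan: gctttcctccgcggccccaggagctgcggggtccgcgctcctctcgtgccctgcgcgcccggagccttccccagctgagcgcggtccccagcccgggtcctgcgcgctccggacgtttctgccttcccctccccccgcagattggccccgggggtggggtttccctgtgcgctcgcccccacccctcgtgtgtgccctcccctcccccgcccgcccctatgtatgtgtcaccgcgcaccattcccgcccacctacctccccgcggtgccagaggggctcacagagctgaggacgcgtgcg
Ucma: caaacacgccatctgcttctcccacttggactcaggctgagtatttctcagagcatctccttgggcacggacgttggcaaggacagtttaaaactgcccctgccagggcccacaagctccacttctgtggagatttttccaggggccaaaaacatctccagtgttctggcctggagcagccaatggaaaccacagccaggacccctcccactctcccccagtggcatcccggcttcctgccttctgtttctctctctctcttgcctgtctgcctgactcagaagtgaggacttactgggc
Chad: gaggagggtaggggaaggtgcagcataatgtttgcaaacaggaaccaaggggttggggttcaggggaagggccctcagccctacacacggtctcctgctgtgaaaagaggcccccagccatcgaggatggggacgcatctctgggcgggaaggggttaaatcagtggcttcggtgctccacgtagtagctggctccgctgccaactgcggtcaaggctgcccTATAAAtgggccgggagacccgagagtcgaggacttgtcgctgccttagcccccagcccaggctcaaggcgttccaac
The Chad window holds TATAAA on the forward strand, 28 bases before the start, and none of the other 6 windows holds it on either strand. Among all 32851 windows of the same length, 13.6% hold it on either strand. The letters ACAAAG or ACAATG, a core that SOX proteins can bind, were searched on both strands and occur in 0 of the 7 windows, against 28.6% of all windows. Bases G and C make up 74.0% of the Acan window, 56.0% of the Ucma window and 61.0% of the Chad window, beside a median of 52.7% over all windows.

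All 10 genes passed the filter on low values, and 4 of them were lower in cKO by the test across all genes (limma on log2(normalized count + 1), Benjamini-Hochberg adjusted p under 0.05): Ucma, Hapln1, Acan and Snorc. Of all genes tested, 2.87% were called lower. None of the 10 was called higher, where 4.61% of all genes were, and at an unadjusted p under 0.05 the counts were 8 lower and 0 higher, beside 12.2% and 14.7% of all genes. Every cKO library lay below every Control library for 7 of the 10, namely Acan, Hapln1, Matn3, Cnmd, Snorc, Ucma and Comp, and this held for 4.6% of all genes tested. The median log2 fold change of the 10 genes was -4.62, beside -0.0039 for all genes. In bulk RNA, fewer cells of a type and less RNA per cell cannot be told apart. The count depended on the tool and on single libraries. On recovered reads, 0 of the 10 passed edgeR's quasi-likelihood test (7 lower at an unadjusted p under 0.05, beside 11.1% of all genes; adjusted p of 0.0619 or more; 1.71% of all genes called lower), and with DESeq2 6 did (Comp, Matn3, Hapln1, Cnmd, Snorc and Ucma; 6.19% of all genes).

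**Figure D1:**
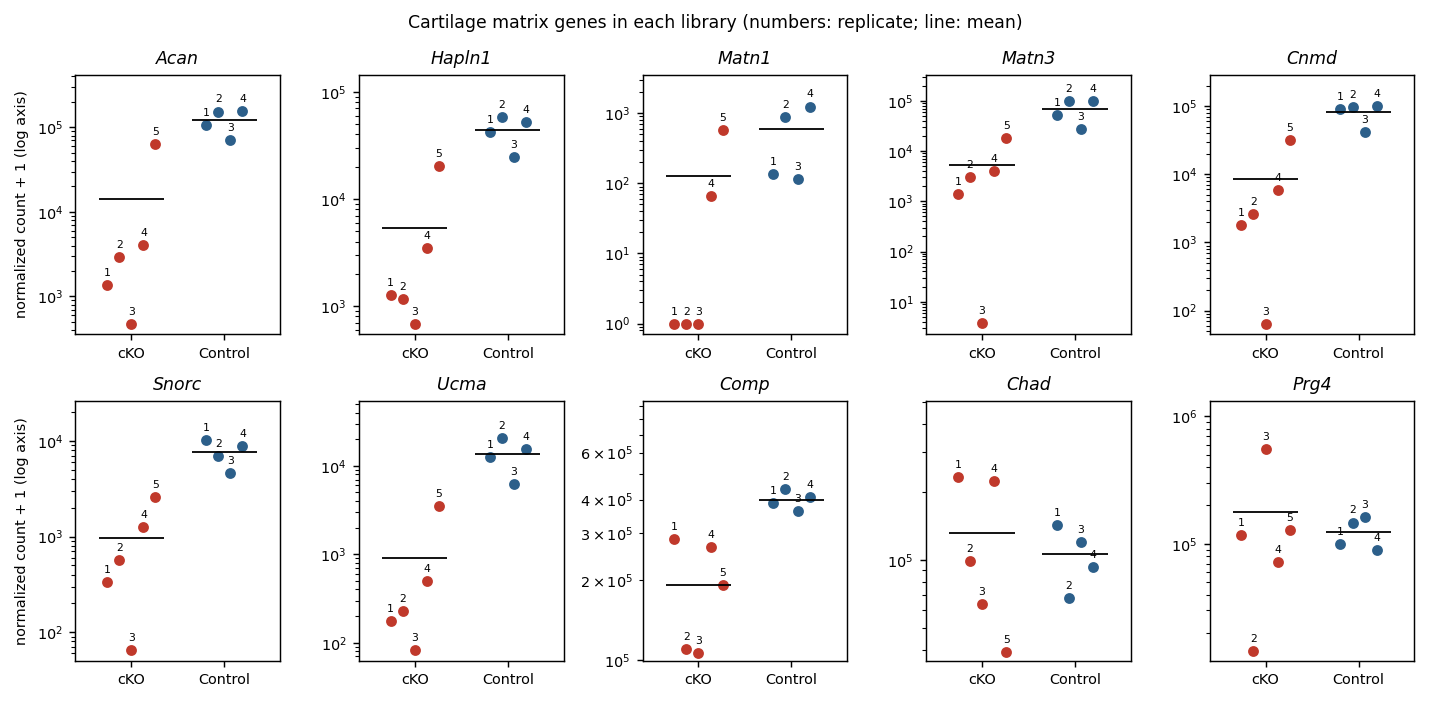
Normalized count plus 1 of each of the 10 genes on a log axis, with cKO libraries in red and Control libraries in blue, the replicate number above each point and the group mean as a line. In Acan, Hapln1, Matn3, Cnmd, Snorc and Ucma all cKO points lie below all Control points and cKO replicate 5 lies closest to Control. All cKO points of Comp lie below Control as well, while Matn1, Chad and Prg4 overlap.

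Acan, the aggrecan gene, had 1377, 2932, 473, 4041 and 63069 normalized counts in cKO replicates 1 to 5, against 105450.4, 153804, 71699 and 157508 in Control replicates 1 to 4. The groups did not overlap, and the highest cKO library, replicate 5, stood just below the lowest Control library, replicate 3. The means were 14378 ± 27253 in cKO and 122115 ± 41135 in Control (SD, n = 5 and 4). On the log2(normalized count + 1) scale Acan was 33.7-fold lower (log2 fold change -5.08, SE 1.13, limma adjusted p = 0.0284). By the ratio of means it was 8.49-fold lower. The fold from logs follows the 4 low libraries, and the ratio of means follows the 1 high library.

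Hapln1, the link protein gene, had 1262, 1166, 676, 3451 and 20322 normalized counts in cKO, against 41768, 58111, 24756 and 52801 in Control. Again cKO replicate 5 was the highest of its group and Control replicate 3 the lowest of its own, with no overlap. The log2 fold change was -4.17 (SE 0.85, limma adjusted p = 0.0209). Within a library, Hapln1 counts were 32.2% to 143% of Acan counts in cKO and 33.5% to 39.6% in Control. The highest of these ratios belonged to cKO replicates 1, 3 and 4 (91.6%, 143% and 85.4%), whereas cKO replicates 2 and 5 had 39.8% and 32.2%, just outside the Control range on either side.

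Matrilins are adaptor proteins that link collagen fibrils to proteoglycans. Matn3 had 1368, 2984, 2.71, 3923 and 17817 normalized counts in cKO, against 52210.4, 97789.5, 28012 and 100452 in Control. All cKO libraries lay below all Control libraries, and cKO replicate 3 held only 4 reads of the gene. That library widens the error: the log2 fold change was -5.93 with an SE of 2.02 (limma adjusted p = 0.0945), and without cKO replicate 3 it was -3.90 and passed (limma adjusted p = 0.0245). Matn1, typical of mature hyaline cartilage and the least abundant of the 10 genes, had 0, 0, 0, 65.0 and 566 normalized counts in cKO, against 135, 875, 114 and 1245 in Control. Its groups overlapped, since cKO replicate 5 stood above Control replicates 1 and 3. The log2 fold change of -5.46 (SE 1.99) did not pass (limma adjusted p = 0.113), and it depends on how zeros are treated. By the ratio of means Matn1 was 4.69-fold lower, a figure that follows the 1 high library, cKO replicate 5. The mean of cKO replicates 1 to 4 was 36.4-fold below the Control mean.

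Cnmd encodes chondromodulin, a membrane-derived factor that inhibits vessel growth. It had 1819, 2587, 63.7, 5792 and 32188 normalized counts in cKO, against 89395, 97725, 41897 and 100408 in Control, without overlap. Its log2 fold change of -5.12 (SE 1.40) fell just short of the threshold (limma adjusted p = 0.0532). Snorc, a small transmembrane chondroitin sulfate proteoglycan, had 333, 565, 63.7, 1262 and 2604 in cKO, against 10163, 6986, 4596 and 8810.2 in Control (13.9-fold lower, SE 0.88 on the log2 scale, limma adjusted p = 0.0329). Ucma encodes a secreted Gla-rich protein of cartilage. It had 175, 229, 81.4, 503 and 3520.0 in cKO, against 12463, 20599, 6228 and 15663 in Control, and gave the smallest p of the 10 genes (log2 fold change -5.13, SE 0.92, limma adjusted p = 0.0134). In all 3 genes cKO replicate 3 was the lowest library and cKO replicate 5 the highest of its group.

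Comp, a thrombospondin family protein of cartilage, tendon and ligament, had 284869.5, 110492, 106923, 265652 and 191743 normalized counts in cKO, against 389324, 437275, 364013 and 407856 in Control. The groups did not overlap, and the difference was much smaller than for Acan: 2.26-fold lower, log2 fold change -1.18 (SE 0.35, limma adjusted p = 0.0685). It did not pass, except without cKO replicate 5 (log2 fold change -1.21, limma adjusted p = 0.0432) and with DESeq2. Here cKO replicate 5, at 48.0% of the Control mean, was like the average of cKO replicates 1 to 4, also at 48.0%.

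Chad encodes chondroadherin, a leucine-rich repeat protein that binds collagen and integrins. It had 232234, 98751, 63695, 223681 and 39080.2 normalized counts in cKO, against 142916, 67842, 120077 and 92710.4 in Control. The cKO libraries spread on both sides of Control, with replicates 1 and 4 above and replicates 3 and 5 below every Control library. The log2 fold change was 0.043 (SE 0.52, 95% interval -1.12 to 1.21, limma adjusted p = 0.968), and its sign turned without cKO replicate 1 (-0.24), without cKO replicate 4 (-0.23), and without Control replicates 2 (-0.15) or 4 (-0.0026). Cilp and Cilp2, which encode cartilage intermediate layer proteins and were picked here after their values were seen, were likewise highest in cKO replicates 1 and 4 (Cilp 230075 and 208828, Cilp2 74403 and 62522), against 44335 to 125289 and 24379 to 48148 in Control. The 6 tenocyte and ligament markers summed to 472899 and 459772 in cKO replicates 1 and 4, to 123688 to 335220.1 in the other cKO libraries, and to 312062 to 347199 in Control. Fmod and Thbs4 made up most of these sums, and the list did not move as one: Thbs4 was highest in cKO replicate 1, Fmod and Mkx in cKO replicate 4, and Tnmd, Scx and Kera in cKO replicate 2. None of these markers was at 0 in any library, and their part in the Chad values was not tested.

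Prg4 encodes lubricin, made by cells of the joint surface and the synovial lining. It had 116921, 14510.4, 551034, 71597 and 127736 normalized counts in cKO, against 99527, 146844, 162173 and 89666 in Control. The groups overlapped, with cKO replicate 3 above and cKO replicates 2 and 4 below every Control library. The log2 fold change was -0.32 (SE 0.82, 95% interval -2.14 to 1.51, limma adjusted p = 0.834), while the ratio of means ran the other way, 1.42-fold higher in cKO, with cKO replicate 3 holding most of the cKO sum. Without cKO replicate 2 the log2 fold change was 0.37. The 5 synovial lining markers, Prg4 among them, summed to 613039 in cKO replicate 3 and 23732 in cKO replicate 2, and to 103059 to 184372 in Control. Prg4 itself made up most of each of these sums, so they largely repeat its values. Clic5, Htra4, Tspan15 and Creb5, the rest of the list, were each highest in cKO replicate 3. In cKO replicate 2, Clic5 and Htra4 lay below every Control library, Tspan15 inside the Control range and Creb5 above it.

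**Figure D2:**
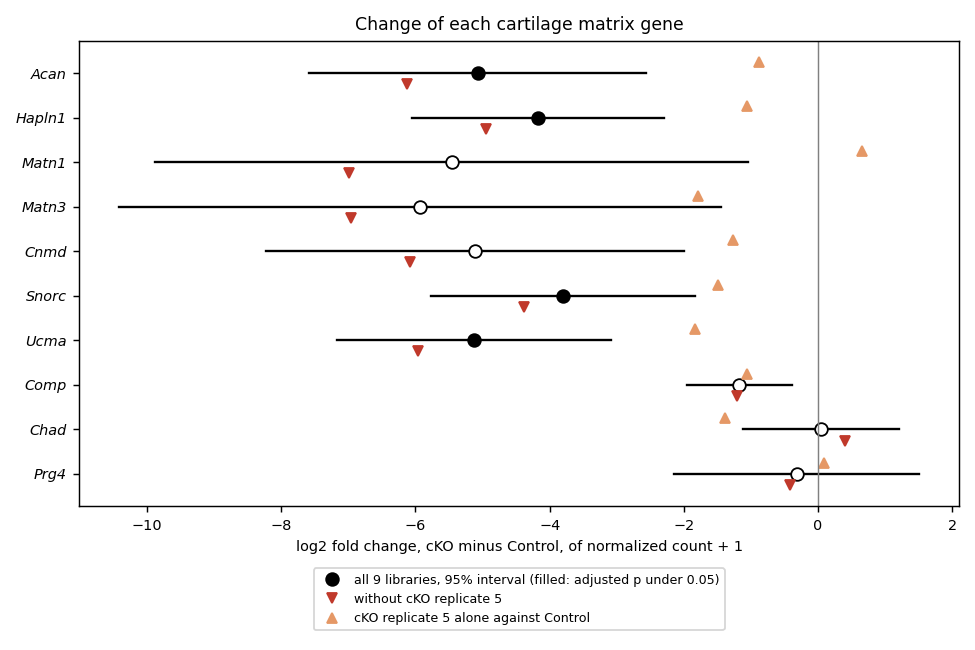
Log2 fold change of normalized count plus 1, cKO minus Control, for each gene: circles with 95% intervals use all 9 libraries (filled where the limma adjusted p is under 0.05), downward triangles leave out cKO replicate 5, and upward triangles set cKO replicate 5 alone against Control. For 7 genes the downward triangles lie at -4.38 or below and the upward ones between -1.84 and 0.65, while for Comp all 3 estimates lie close together.

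The cKO libraries were ordered almost alike over Acan, Hapln1, Matn1, Matn3, Cnmd, Snorc and Ucma, which are grouped here after their values were seen and so get no test. As given above, cKO replicate 5 is set apart over all genes as well. In all 7 of these genes cKO replicate 5 was the highest cKO library and cKO replicate 3 the lowest or tied for lowest, and Control replicate 3 was the lowest Control library in all 7. In cKO replicate 5 the 7 genes stood at 25.6% to 95.6% of the Control mean, and on average in cKO replicates 1 to 4 at 1.80% to 7.28%. Set alone against the 4 Control libraries, cKO replicate 5 gave a log2 fold change of -0.88 for Acan, -1.05 for Hapln1 and -1.84 for Ucma (limma adjusted p = 0.678, 0.621 and 0.519), and no gene of the 10 passed (4 lower and 0 higher at an unadjusted p under 0.05, beside 5.91% and 3.58% of all genes; 0.114% of all genes called lower). Those 4 were Comp, Snorc, Chad and Ucma, with log2 fold changes of -1.06, -1.49, -1.38 and -1.84. Comp and Chad are outside the 7 genes, and Acan and Hapln1 were not among the 4. That comparison at like depth takes its spread from Control alone and assumes that a lone cKO library varies as much. Without cKO replicate 5, 8 of the 10 passed as lower (all but Chad and Prg4; 10.1% of all genes called lower). Without cKO replicate 3, 6 passed (1.26% of all genes called lower), and without cKO replicate 2 or Control replicate 3, Hapln1 and Ucma did (1.55% and 1.09%). Ucma alone passed without cKO replicate 1 (0.872%), cKO replicate 4 (0.758%), Control replicate 1 (0.777%), Control replicate 2 (0.846%) or Control replicate 4 (0.84%). Ucma was also the gene called in most settings, 18 of 22. The 4 calls held with a pseudocount of 0.5 (2.73% of all genes called lower), no filter (1.67%), a filter of 50 (3.27%), TMM scaling (2.81%) and upper-quartile scaling (2.65%), and Cnmd joined them with a pseudocount of 5 (3.13%). With library quality weights 7 were called (11.5%). With replicate number as a term 7 were also called (7.62%), in a fit that takes cKO replicate 5 out of the comparison. Without Control replicates 1 and 3 together, or with depth class as a covariate, 0 were called (0.366% and 0.385%). Without these 2 Control libraries 8 were lower at an unadjusted p under 0.05, beside 7.94% of all genes.

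The 10 genes took 0.936% ± 0.336 of all normalized counts in cKO and 1.58% ± 0.107 in Control (SD, n = 5 and 4). The 7 genes named above took 0.0113%, 0.0178%, 0.00240%, 0.0328% and 0.243% in cKO replicates 1 to 5, against 0.515%, 0.674%, 0.308% and 0.692% in Control replicates 1 to 4. Comp, Chad and Prg4 together took 0.381% to 1.27% in cKO and 0.934% to 1.12% in Control, so the ranges of their sum overlapped. The normalized counts of Comp alone did not overlap between groups. The make-up of the sum also differed between cKO libraries: Prg4 was 76.2% of it in cKO replicate 3, and Chad 42.2% in cKO replicate 2, against 8.73% to 19.7% and 6.24% to 15.1% in Control. Per kilobase of the longest coding transcript (lengths from GENCODE M21), Comp ranked first in both groups, at 79444 ± 34587 in cKO and 165404 ± 12779 in Control. Chad came next in both, at 78267 ± 53947 and 63028 ± 19421, so that in cKO these neighbours in the order do not differ beyond their spread. Cnmd, which came next in Control at 57471 ± 19105 per kilobase, stood at 5925 ± 9357 in cKO.

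**Figure D3:**
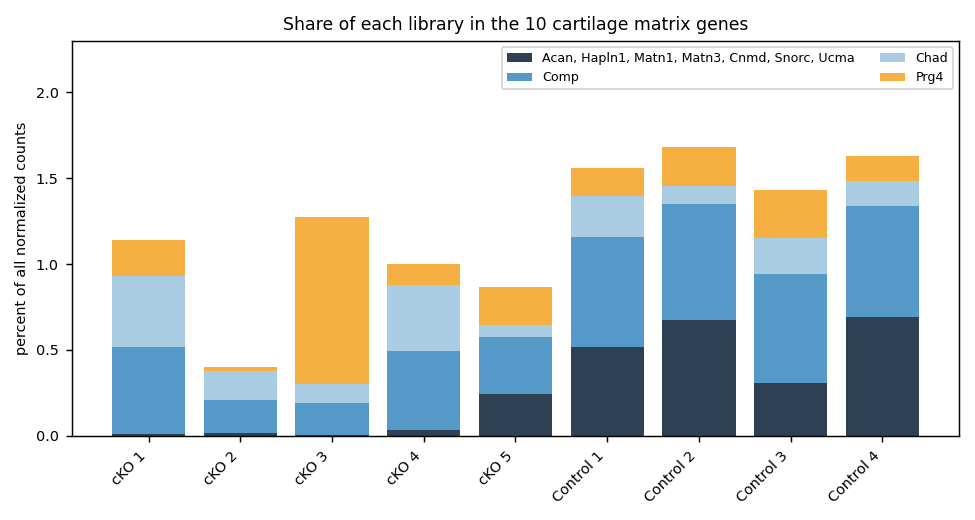
Percent of all normalized counts of each library taken by the 10 genes, as stacked bars, with Comp, Chad and Prg4 shown apart from the other 7. The dark segment of the 7 genes is at most 0.0328% in cKO replicates 1 to 4 and 0.243% in cKO replicate 5, against 0.308% to 0.692% in Control.

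Profiles were compared as the root mean square difference, over the 9 libraries, of log2 values centred on each gene's own mean, which uses no test. Acan and Ucma were nearest (0.46), then Hapln1 and Ucma (0.52), and Matn3 and Prg4 were farthest apart (4.99). Among 13406 named genes outside the list with a mean of at least 50, the 5 nearest to Acan were Col9a3 (0.51), Col2a1 (0.60), Col9a2 (0.76), Lbhd2 (0.86) and Col9a1 (0.97). All but Lbhd2 are cartilage collagen genes. Acan counts were 2.09% to 8.19% of Col2a1 counts in cKO and 4.34% to 5.68% in Control, with cKO replicate 5 highest at 8.19% and cKO replicates 1 to 4 between 2.09% and 3.78%. The 5 nearest to Prg4 were Kcng2 (0.56), Htra4 (0.56), Hbegf (0.57), Pkp1 (0.67) and Ccdc120 (0.68). Htra4, which encodes a secreted serine protease, had 9843, 2302, 29156, 7309 and 5849 normalized counts in cKO, against 7493, 6399, 11314 and 5844 in Control, with the same library highest and the same lowest as for Prg4.

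**Figure D4:**
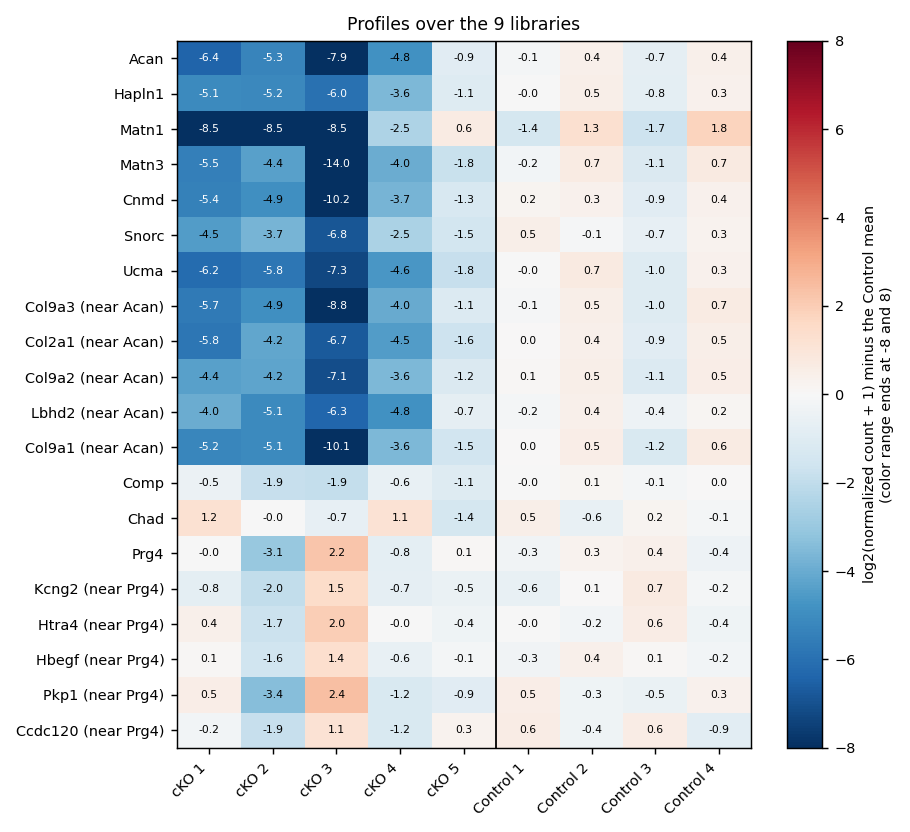
Log2(normalized count + 1) minus the Control mean, for each library (cKO left of the line, Control right), of the 10 genes and of the 5 genes nearest in profile to Acan and to Prg4. The upper block is blue in cKO replicates 1 to 4 and pale in cKO replicate 5. The rows near Prg4 lie above the Control mean in cKO replicate 3 and below it in cKO replicate 2, most of them in pale shades as well.

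Genes that build, modify or regulate the same matrix were read from 7 further lists, and each count over all libraries stands beside the 2.87% of all genes called lower and the 4.61% called higher. Counts at an unadjusted p under 0.05 stand beside 12.2% of all genes lower and 14.7% higher, and calls without cKO replicate 5 beside 10.1% lower and 12.4% higher. With any 1 other library left out, 0.758% to 1.55% of all genes were called lower, and 257 to 423 of 15832 genes higher. In edgeR, 1.71% were called lower. Of 8 cartilage collagen genes, 6 were lower and 0 higher (7 lower and 0 higher at an unadjusted p under 0.05; median log2 fold change -3.55). Col2a1, the main fibril collagen of cartilage, was 23.5-fold lower (limma adjusted p = 0.0184), Col27a1 8.06-fold (0.0184) and Col11a2 4.06-fold (0.0213), each with no overlap between groups. The count was 0 without Control replicate 2, Control replicate 4 or cKO replicate 4, 1 without Control replicate 1, and 2 without cKO replicate 1. It was 4 without cKO replicate 2 or Control replicate 3. In edgeR it was 2.

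Of 20 further non-collagen cartilage matrix genes 18 could be tested, and 7 were lower and 0 higher (8 lower and 1 higher at an unadjusted p under 0.05; median -0.96). Susd5, a hyaluronan-binding sushi domain protein, was 14.8-fold lower, with 618, 897, 1333, 1397 and 4967 normalized counts in cKO against 14352 to 25179 in Control (limma adjusted p = 0.0034). Chadl, chondroadherin-like, was 5.37-fold lower and Clec3a, a cartilage lectin, 4.55-fold lower (limma adjusted p = 0.00878 and 0.0112). These 3 have no overlap between groups. The count was 4 without Control replicate 1, 2, 3 or 4 and without cKO replicate 1 or 2, and 4 in edgeR.

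For the synthesis of chondroitin sulfate, the sugar chain of aggrecan, 26 genes of enzymes and transporters were tested: 11 were lower and 1 higher (median -0.56). Chst11, which sulfates the chain, averaged 842 ± 341 normalized counts in cKO and 3355 ± 985 in Control (4.05-fold lower, limma adjusted p = 0.00542). Chsy1, a chain polymerase, was 3.85-fold lower and Slc26a2, the sulfate transporter, 4.61-fold lower (limma adjusted p = 0.0173 and 0.0186). Ust, a uronyl sulfotransferase, was the gene that rose, with 3425 ± 686 in cKO and 1573 ± 544 in Control (2.25-fold, limma adjusted p = 0.0288). The lower count was between 1 and 5 without any 1 library other than cKO replicate 5, and it was 6 in edgeR. The list's higher count was 1 without Control replicate 1, Control replicate 3 or cKO replicate 5, and 0 without any 1 of the other libraries.

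Among 12 genes of aggrecan-cleaving proteases and their inhibitors, 1 was lower and 1 higher (median -0.76). The pair encode the main aggrecanases. Adamts4 had 1584, 1404, 1306, 1237 and 3361 normalized counts in cKO, against 5041, 5607, 7560.2 and 9140.0 in Control, 4.04-fold lower (limma adjusted p = 0.00612). Adamts5 had 5729, 3099, 6138, 4586 and 2335 in cKO, against 1613, 1195, 1354 and 752 in Control, 3.47-fold higher (limma adjusted p = 0.0134). For both, the groups did not overlap and cKO replicate 5 was the cKO library nearest to Control. Without cKO replicate 5 the list counts were 5 lower and 3 higher, where 10.1% and 12.4% of all genes were.

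Of 14 chondrocyte transcription factor genes and partners, 3 were lower and 0 higher (7 lower and 0 higher at an unadjusted p under 0.05; median -0.96). Sox9, the master regulator of chondrocytes, had 6853, 5165, 4871, 7381 and 17153 normalized counts in cKO, against 19329, 24076, 17110.0 and 21677 in Control, with cKO replicate 5 just above the lowest Control library (2.76-fold lower, limma adjusted p = 0.0285). Nkx3-2, a homeobox repressor of chondrocyte maturation, was 3.81-fold lower (limma adjusted p = 0.0184). Wwp2, which encodes a ubiquitin ligase rather than a DNA-binding factor, was 4.56-fold lower (limma adjusted p = 0.00771). The count was 1 without Control replicate 1, 2 or 4 and 7 without cKO replicate 5. It was 2 without cKO replicates 1, 2, 3 or 4 or Control replicate 3.

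Of 15 growth plate signalling and hypertrophy genes, 4 were lower and 0 higher (7 lower and 3 higher at an unadjusted p under 0.05; median -0.62). Panx3, a pannexin channel of prehypertrophic chondrocytes, was 5.63-fold lower, Mia, a secreted cartilage protein, 7.43-fold and Fgfr3, the receptor that restrains growth plate chondrocytes, 7.22-fold (limma adjusted p = 0.0075, 0.0173 and 0.0173). All 3 have no overlap between groups. The lower count was 2 without Control replicate 1, 2 or 4 or cKO replicate 4, and without cKO replicate 5 it was 6, with 3 higher, where 12.4% of all genes were called higher.

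Of 15 synovial lining and articular surface genes, 1 was lower and 1 higher (median 0.056). Erg, a transcription factor of articular chondrocytes that endothelial cells also express, had 116, 106, 20.3, 74.4 and 386 normalized counts in cKO, against 1234, 757, 1110.0 and 511 in Control (8.98-fold lower, limma adjusted p = 0.0295). The list's lower count was 1 without cKO replicate 3, 2 without cKO replicate 5 and 0 without any 1 of the other libraries. The 8 endothelial markers summed to 4056 to 7717 normalized counts in cKO and to 3849 to 125701 in Control, where replicates 1 and 3 had 100346 and 125701. Between groups without overlap, 2 of the 8 were lower in cKO, Flt1 and Cldn5, as were 4.6% of all genes tested. Cd55, a complement regulator of the synovial lining, was 2.41-fold higher (limma adjusted p = 0.0494), with cKO replicate 2 inside the Control range. The higher count was 2 without cKO replicate 2 or cKO replicate 5 and 0 without any 1 of the other libraries.

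**Figure D5:**
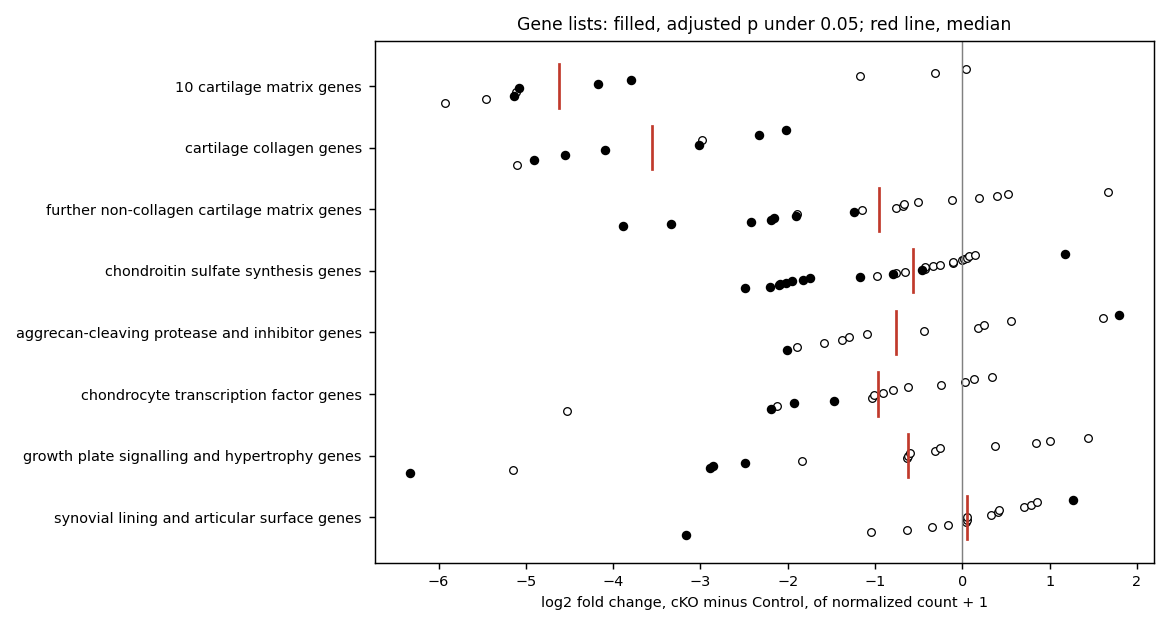
Log2 fold change of normalized count plus 1, cKO minus Control, of every tested gene of the 10 cartilage matrix genes and the 7 further lists, with filled points for a limma adjusted p under 0.05 and the list median as a red line. Medians run from -4.62 for the 10 genes and -3.55 for cartilage collagen genes to 0.056 for synovial lining and articular surface genes.

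Of the marker lists of other cell types, skeletal muscle was the one in which every marker separated the genotypes. For each of the 10 skeletal muscle markers the lowest cKO value exceeded the highest Control value, as was so for 6.82% of all genes tested, with sums of 436074, 245286, 75019.8, 686411 and 84280.1 normalized counts in cKO replicates 1 to 5, against 379 to 1935 in Control. No muscle marker was at 0 in all Control libraries, and Myh4 and Myh1 were each at 0 in 3 of the 4. The muscle sums were lowest in cKO replicates 3 and 5, which were the lowest and the highest cKO library for the 7 genes. The 8 macrophage markers summed to 4852 to 108136 in cKO, with replicate 2 highest, and to 26595 to 59965 in Control. Of these, 1 was lower in cKO without overlap, Mrc1, as were 4.6% of all genes tested. In cKO replicates 1, 3, 4 and 5, C1qa and C1qb were at 0. The 8 osteoblast markers summed to 1329795 to 4908535 in cKO and 2082321 to 2756274 in Control, and the groups overlapped for each. Lyz2 made up most of each macrophage sum and Col1a1 most of each osteoblast sum. The osteoblast list did not move as one: Bglap was highest in cKO replicate 2 and Ibsp in Control replicate 1. What part these cells have in the values of the 10 genes was not tested. By the authors' deposited table, 6 of the 10 genes had an adjusted p under 0.05 and all 6 were lower (6.63% of its genes with an adjusted p were). Those were Comp, Matn3, Hapln1, Cnmd, Snorc and Ucma, with adjusted p of 0.00859, 0.0368, 0.0185, 0.0413, 0.001 and 0.00265 in the authors' deposited table, and Acan missed with 0.0661.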

How the data were processed

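Titles gave the group and replicate of each of the 9 paired-end libraries (read length 150 bases, per the labels' protocols). The submitters' processing notes name STAR, featureCounts, DESeq2 and mm39; versions, annotation and strand setting are not given in the sources used. The authors deposited normalized counts (a signal: each library's gene counts over a single size factor). Per the file headers, their second table has mean normalized counts (signal), log2 fold changes with errors, a Wald score, p-values and adjusted p-values, and is quoted only as theirs.

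Within each library at least 99.99% of values above 0 were whole multiples of 1 step (tolerance 0.01 of a read), and that step gave back reads for depth and for count tests. Symbols came from an NCBI table of GRCm38.p6: 25275 IDs matched, and the 1904 others stayed in the tests. As that is not mm39, it served for names and start windows alone.

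Genotype was tested, two-sided, with limma 3.58.1 (R 4.3.3; trended empirical Bayes) on log2 of the normalized count plus 1. The 15832 genes with at least 10 normalized counts in at least 4 libraries were adjusted together (Benjamini-Hochberg, threshold 0.05), and this gene filter was kept when libraries were left out. Fold changes on that scale understate changes of low genes. The script was tested on simulated reads. Alternatives were count tests on the recovered reads (edgeR 4.0.16; DESeq2 1.42.0), pseudocounts of 0.5 and 5, other filters (none, or 50) and scalings (TMM, upper-quartile), library quality weights, a replicate block, depth class as a covariate, and left-out libraries. No pair of libraries agreed within sampling noise.

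The members, lists and alternatives were chosen with earlier results of these data known. Named genes are all 10 members, up to 3 passing genes in each direction by p in each list, and the 5 nearest profiles to Acan and to Prg4. Outside that rule, Cilp, Cilp2 and single genes of the marker lists are named after their values were seen. Reads of overlapping or antisense genes cannot be told apart here.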

Additional observations from a re-analysis of the deposited data

Results flagged for a closer look

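In groups of 4 or 5 libraries, the gap between the highest or lowest library and its neighbour was set against the range of the group (Dixon's 95% critical value, 0.710 for 5 libraries and 0.829 for 4). Of 24 groups examined (10 genes, their summed share and Grem1, in cKO and in Control), 7 stood out, where chance gives about 1 in 20 for values with a normal spread. Of these, 6 were cKO replicate 5, as the highest cKO library: Acan with 63069 normalized counts, Matn1 with 566, Matn3 with 17817, Hapln1 with 20322, Cnmd with 32188 and Ucma with 3520.0. All 6 values come from 1 library. The other was Prg4 in cKO replicate 3, with 551034. These ratios were taken on normalized counts. On the log2(normalized count + 1) scale used for the tests, 0 of the 7 exceeded the critical value, with ratios of 0.562 for Acan, 0.521 for Hapln1, 0.518 for Ucma, 0.402 for Prg4 and 0.178 to 0.339 for the others.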

How the results depend on the processing

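TMM and upper-quartile scaling, no filter, a filter of 50 and a pseudocount of 0.5 left 4 of the 10 genes called lower, the same 4, and a pseudocount of 5 gave 5; the synovial list's 1 higher call was 0 with a pseudocount of 0.5, no filter or TMM scaling, and 2 with a pseudocount of 5 or a filter of 50. With edgeR, 786 genes were called in all, 0 of the 10, 2 cartilage collagen genes, 4 further matrix genes, 6 chondroitin sulfate genes, and 0 lower and 0 higher in the synovial list; Prg4 had a log2 fold change of 0.48. With DESeq2, 2539 were called, with 1 further matrix gene higher, 2 proteases lower, 5 transcription factors lower, 3 growth plate genes higher and 2 synovial genes higher, and Prg4 at 0.50. Of 15708 genes with an adjusted p, DESeq2 called 972 lower and 1567 higher. Library quality weights called 4056 genes, 7 of the 10 lower, 1 further matrix gene higher, 4 proteases lower and 2 higher, 8 transcription factors lower, 7 growth plate genes lower and 3 higher, and 2 synovial genes lower and 4 higher. Of all 15832 genes, these weights called 1819 lower and 2237 higher. Deviations of libraries with the same replicate number had correlations of -0.011 to 0.070 over genes, and those with different numbers -0.108 to 0.154. No pairing by number was seen, but weak correlations cannot exclude one. With a replicate block, which gives cKO replicate 5 a level of its own and so removes it from the comparison, 2715 genes were called, 7 of the 10 lower, 1 further matrix gene higher, 4 proteases lower and 3 higher, 7 transcription factors lower, 2 growth plate genes higher, and 2 synovial genes lower and 4 higher. Of all 15832 genes, the block fit called 1207 lower and 1508 higher.

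With libraries under 60 M reads alone (cKO replicate 5 against Control) 83 genes were called, 0 of the 10 and 0 in each list in either direction. Depth class as a covariate, which makes the same contrast, called 78 genes, 0 of the 10, 1 chondroitin sulfate gene lower and 0 in every other list. In both, Matn1 was at 0.65, Chad at -1.38 and Prg4 at 0.081. Without Control replicates 1 and 3 together, 338 genes were called, 0 of the 10 (8 lower at an unadjusted p under 0.05), 0 cartilage collagen, 2 further matrix, 1 chondroitin sulfate (0 higher), 1 transcription factor, 1 growth plate, and 0 lower and 0 higher synovial genes. Leaving out 1 library at a time gave 377 to 3562 genes in all, 1 to 8 of the 10 lower, 0 to 7 cartilage collagen, 4 to 10 further matrix lower and 0 to 1 higher, 1 to 13 chondroitin sulfate lower and 0 to 1 higher, 1 to 5 proteases lower and 1 to 3 higher, 1 to 7 transcription factors, 2 to 6 growth plate lower and 0 to 3 higher, and 0 to 2 synovial genes lower and 0 to 2 higher. The highest count of all genes and of the 10 came without cKO replicate 5. In such fits Chad ranged between -0.24 and 0.40 and Prg4 between -0.94 and 0.37; the fits in which Chad was below 0 gave -0.24, -0.23, -0.15 and -0.0026. The cause of these shifts was not tested. Matn1 had 0 reads in cKO replicates 1 to 3, which does not show that it is absent.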
